A study of Mus musculus with 23 samples.

Results

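The data described here are the counts of cortactin (Cttn) and of the genes of the Arp2/3 complex in 23 mouse melanoma tumors. The set held 9 genes, Cttn, Arpc1a, Arpc1b, Arpc2, Arpc3, Arpc4, Arpc5, Actr2 and Actr3, out of 56748 genes in the count table. They were chosen by name, with the measured counts of these tumors already known, and the record does not say which comparison drew attention to them. Every fold change and p-value below therefore describes these tumors and is no independent evidence that the genes respond. All 9 genes passed the filter on low counts in the tumors of both routes.

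B16-F1 cells, a single line of mouse melanoma, were implanted under the skin of DBA/2J mice aged 6 to 8 weeks, and tumors were taken on day 14. Tumors received pentoxifylline (PTX, a phosphodiesterase inhibitor) at 60 mg/kg, norcantharidin (NCTD, an inhibitor of protein phosphatase 2A) at 3 mg/kg, or both at these doses (MIX). By the intraperitoneal route (IP) the control was sterile saline and each of the groups CONTROL_IP, PTX_IP, NCTD_IP and MIX_IP held 2 tumors. By the intratumoral route (IT) the control was DMSO, and the groups were CONTROL_IT (n = 4), PTX_IT (n = 3), NCTD_IT (n = 4) and MIX_IT (n = 4). Route, vehicle and the batch that the labels name changed together, so they cannot be told apart, and treatments were compared with the control of their own route. The labels give each tumor its own number, which is used below, and p-values measure the spread between these tumors.

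The Arp2/3 complex starts a new actin filament on the side of an existing one and so builds the branched actin networks that push out lamellipodia and move vesicles. Actr2 and Actr3 encode the actin-related proteins that form the seed of the branch, and the Arpc genes encode the subunits that hold them together and dock them to the mother filament. Cortactin binds both the complex and filamentous actin, stabilises branches, and is known for its part in the invadopodia with which melanoma cells degrade matrix. Arpc1a and Arpc1b encode alternative forms of the same subunit, as do Arpc5 and Arpc5l.

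Total counts per tumor lay between 2861578 and 6702374 (median 4013068), and the floor of 3 counts corresponded to 0.449 to 1.04 CPM. CPM is the count of a gene scaled to a common library size, here with TMM factors over all tumors, and all levels are given in it. Counting error alone did not cover the spread between tumors of a group (chi-square over its degrees of freedom, 8.09 to 64.6 in pairs of tumors). The 7 melanoma cell markers, all of which were counted in every group, summed to 15319 to 37163 CPM per tumor. Libraries were made from the 3′ ends of messenger RNA, so levels are compared between groups of tumors and not between genes. Calls are edgeR quasi-likelihood tests at a Benjamini-Hochberg adjusted p below 0.05 over all genes tested.

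By the intratumoral route, Cttn and Arpc1a were higher in each drug group than in CONTROL_IT, and Arpc2 was lower in NCTD_IT and MIX_IT. The summed level of the 8 Arp2/3 genes was not tested. It overlapped CONTROL_IT in every drug group, and its mean was highest in PTX_IT (2964 ± 184 CPM, SD, against 2715 ± 121). The increases of Cttn and Arpc1a passed the test in NCTD_IT, where Cttn rose by 0.68 ± 0.15 (SE) and Arpc1a by 0.98 ± 0.21 on the log2 scale. Neither call held with the level of Xist, which separated NCTD_IT from CONTROL_IT, as a covariate (Cttn 0.38, edgeR adjusted p = 0.858, and Arpc1a 0.65, adjusted p = 0.845). Leaving out any 1 of 7 of the 8 tumors also ended both. In MIX_IT the fitted increases were 0.84 ± 0.15 for Cttn and 1.01 ± 0.21 for Arpc1a and did not pass the adjusted threshold. Neither gene was called between MIX_IT and NCTD_IT (differences of 0.16 ± 0.15 and 0.03 ± 0.20). By the intraperitoneal route, neither gene passed the test in any comparison.

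Cttn (ENSMUSG00000031078) lies on chromosome 7, minus strand, at chr7:143989470-144024746 of GRCm39. Its level in the CONTROL_IT tumors 9, 10, 11 and 12 was 301.0, 291.2, 281.7 and 258.0 CPM. The PTX_IT tumors 13, 15 and 16 held 401.3, 426.4 and 321.8 CPM. The NCTD_IT tumors 17 to 20 held 422.7, 420.3, 465.0 and 500.6 CPM, and the MIX_IT tumors 21 to 24 held 429.9, 474.0, 620.7 and 501.9 CPM. Every treated IT tumor lay above every CONTROL_IT tumor. How many of all genes separate the tumors in this way was not counted, here or for the genes below. Such separation is therefore not shown to be particular to the members. Group means were 283 ± 18.4 (SD, n = 4), 383 ± 54.6 (n = 3), 452 ± 38.3 (n = 4) and 507 ± 81.6 CPM (n = 4) in the same order. The fitted log2 fold change of Cttn was 0.43 ± 0.16 (SE) in PTX_IT (edgeR adjusted p = 0.785), 0.68 ± 0.15 in NCTD_IT (adjusted p = 0.0414) and 0.84 ± 0.15 in MIX_IT (adjusted p = 0.109). Which group passed depended on the fit. With Xist as a covariate Cttn was called in MIX_IT (0.87, edgeR adjusted p = 0.0413) and not in NCTD_IT (0.38, adjusted p = 0.858), and DESeq2 on the 2 groups compared called it in both.

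Arpc1a (ENSMUSG00000029621), which encodes a form of the WD40 subunit of the complex, lies on chromosome 5 at chr5:145020640-145045571, plus strand, GRCm39. Its level in the CONTROL_IT tumors 9 to 12 was 241.3, 220.4, 227.5 and 168.0 CPM. The PTX_IT tumors 13, 15 and 16 held 388.5, 438.9 and 259.4 CPM. The NCTD_IT tumors 17 to 20 held 396.9, 368.6, 492.7 and 432.3 CPM, and the MIX_IT tumors 21 to 24 held 297.6, 417.7, 565.8 and 447.9 CPM. As for Cttn, no treated IT tumor overlapped the control range, and PTX_IT tumor 16 and MIX_IT tumor 21 came closest to it. The fitted log2 fold change of Arpc1a was 0.75 ± 0.22 (SE) in PTX_IT (edgeR adjusted p = 0.758), 0.98 ± 0.21 in NCTD_IT (adjusted p = 0.0363) and 1.01 ± 0.21 in MIX_IT (adjusted p = 0.121).

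Arpc2 (ENSMUSG00000006304), which encodes a core subunit that binds the mother filament, lies on chromosome 1 at chr1:74275243-74307368, plus strand, GRCm39, and differed in the opposite direction. The CONTROL_IT tumors 9 to 12 held 527.9, 537.9, 470.7 and 476.7 CPM and the PTX_IT tumors 13, 15 and 16 held 462.9, 371.9 and 481.3 CPM. The NCTD_IT tumors 17 to 20 held 333.6, 210.6, 300.1 and 375.5 CPM, and the MIX_IT tumors 21 to 24 held 324.1, 391.3, 147.1 and 272.5 CPM. All 8 tumors that received NCTD by this route lay below the control range, whereas PTX_IT overlapped it. The fitted log2 fold change was -0.20 ± 0.26 (SE) in PTX_IT (edgeR adjusted p = 0.91), -0.72 ± 0.24 in NCTD_IT (adjusted p = 0.101) and -0.83 ± 0.24 in MIX_IT (adjusted p = 0.185), so that Arpc2 passed in none of these.

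**Figure D1:**
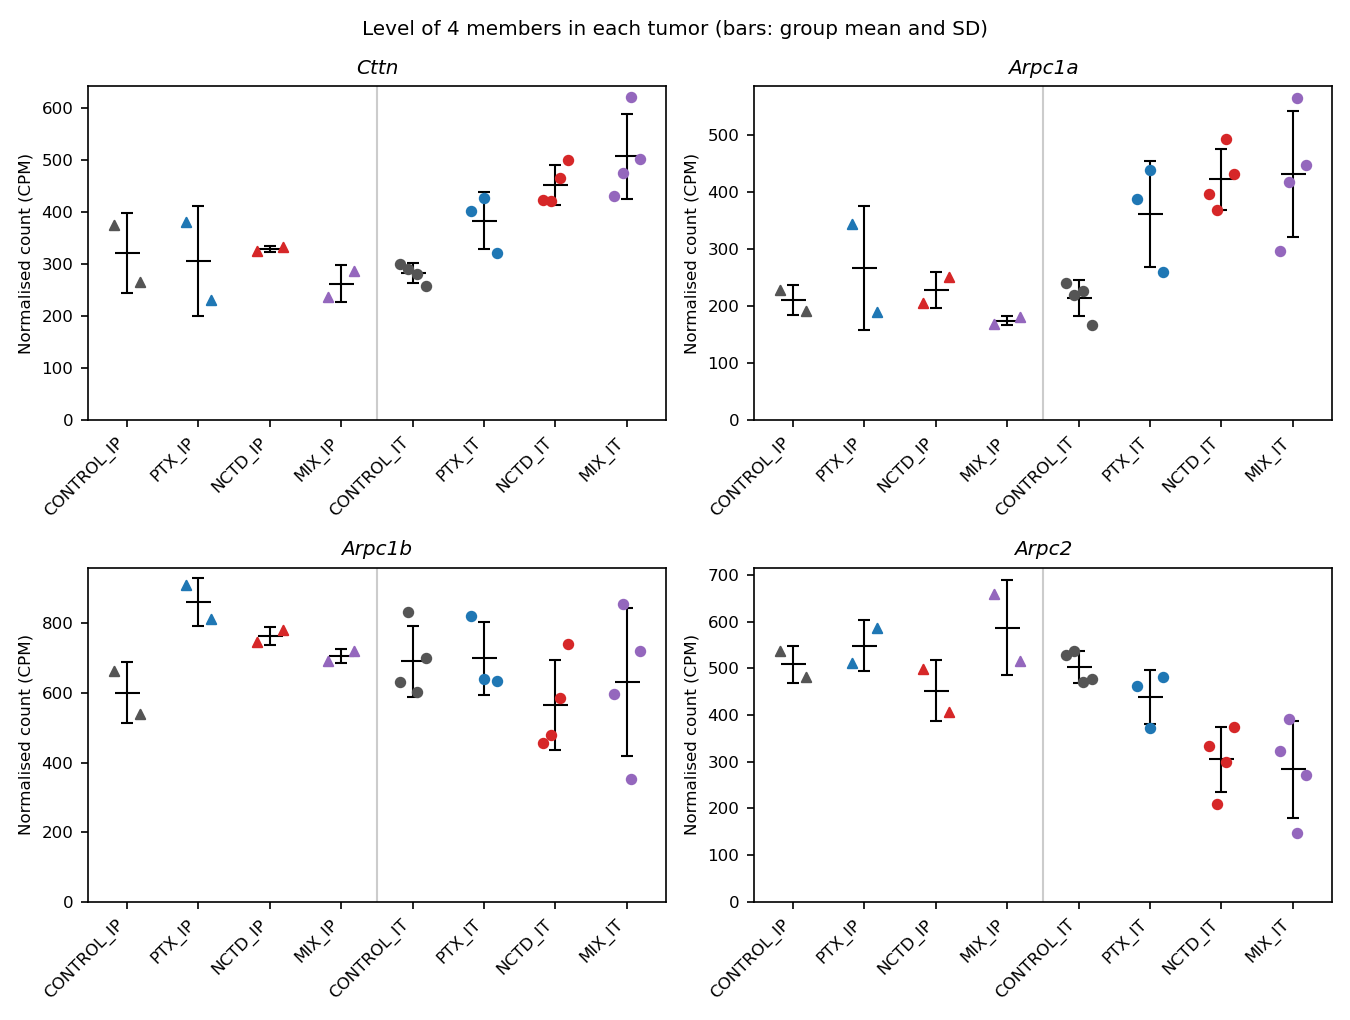
Normalised count in CPM (vertical axes, from 0) of Cttn, Arpc1a, Arpc1b and Arpc2 in each of the 23 tumors of the 8 groups (horizontal axes), with triangles for IP tumors, circles for IT tumors and black bars for the group mean and SD. Cttn and Arpc1a of every treated IT tumor lie above the CONTROL_IT tumors, Arpc2 of the NCTD_IT and MIX_IT tumors lies below them, and Arpc1b of all IT groups overlaps.

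Arpc1b (ENSMUSG00000029622), the alternative form of Arpc1a, is its neighbour at chr5:145051025-145067515 on the same strand, 5453 bases further on. Its level in the CONTROL_IT tumors 9 to 12 was 631.4, 831.7, 601.7 and 699.6 CPM, and the PTX_IT tumors 13, 15 and 16 held 820.0, 641.0 and 635.4 CPM. The NCTD_IT tumors 17 to 20 held 457.4, 479.0, 585.3 and 741.1 CPM, and the MIX_IT tumors 21 to 24 held 595.8, 853.8, 354.1 and 719.7 CPM. All 3 treated groups overlapped the control, and the fitted log2 fold changes were 0.01 ± 0.25 (SE), -0.29 ± 0.23 and -0.14 ± 0.23. The last 500 bases of an Arpc1b transcript also lie in Pdap1, which overlaps it by 1937 bases on the opposite strand and held 6858 counts in all tumors against 69234 for Arpc1b, and the sources used here do not state whether strand was used in counting.

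Within a tumor, the ratio of Arpc1a to Arpc1b is free of the library scaling. This ratio was chosen after the values were seen and is given without a test, and it is used to compare groups and not the amounts of both transcripts. It was 0.316 ± 0.0743 (SD, n = 4) in CONTROL_IT, 0.522 ± 0.144 (n = 3) in PTX_IT, 0.766 ± 0.128 (n = 4) in NCTD_IT and 0.802 ± 0.534 (n = 4) in MIX_IT. All 11 treated IT tumors (0.408 to 1.60) lay above the CONTROL_IT tumors (0.240 to 0.382). The MIX_IT mean rests on tumor 23 at 1.60, since the other 3 tumors lay between 0.489 and 0.622. In the IP groups the ratio lay between 0.234 and 0.378 in all 8 tumors. The ratio of Cttn to Arpc2 was 0.563 ± 0.0274 in CONTROL_IT, 0.894 ± 0.240 in PTX_IT, 1.54 ± 0.329 in NCTD_IT and 2.15 ± 1.41 in MIX_IT, again with tumor 23 at the top (4.22).

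**Figure D2:**
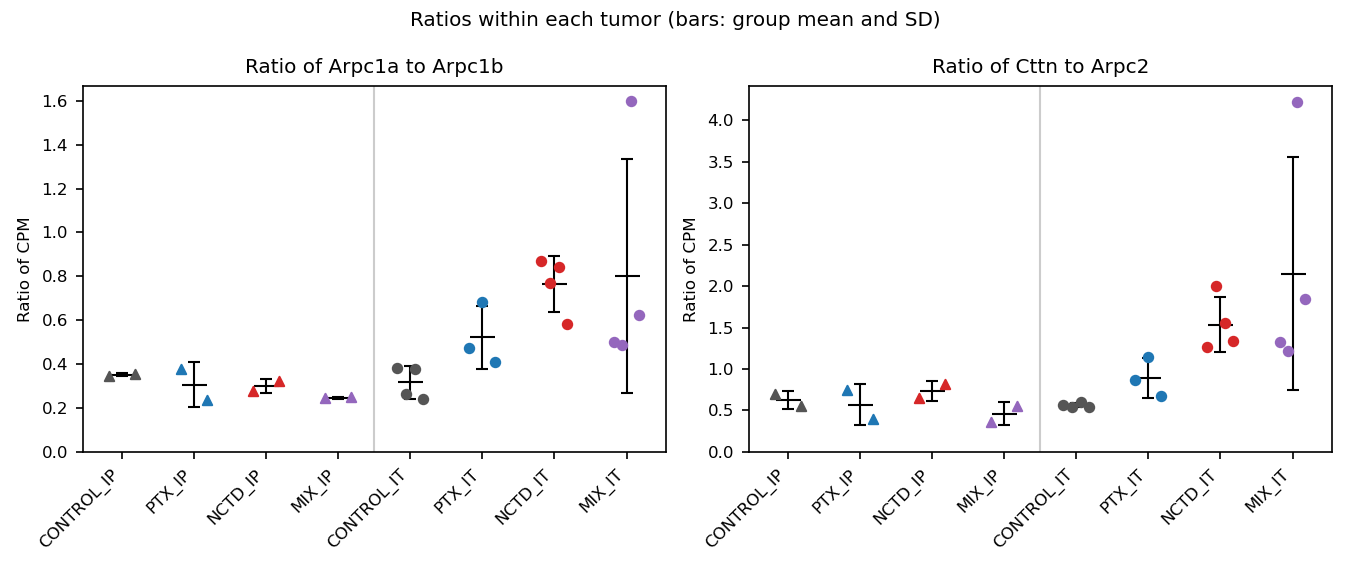
Ratio of Arpc1a to Arpc1b (left) and of Cttn to Arpc2 (right) within each tumor, as ratios of CPM on axes that start at 0, by group, with triangles for IP tumors, circles for IT tumors and black bars for the group mean and SD. The CONTROL_IT tumors (0.240 to 0.382 on the left) lie below all treated IT tumors, and MIX_IT tumor 23 lies at 1.60 and 4.22.

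The sequences before the starts of Arpc1a, Arpc1b and Arpc2 are shown because Arpc1a and Arpc1b are neighbours that encode alternative forms of 1 subunit, and because Arpc2 had fitted changes of the opposite sign to Arpc1a by the intratumoral route. They are the 250 bases before the start of each gene in RefSeq on the build GRCm38.p6 (the count table is on GRCm39, and no coordinate was converted), plus strand, 5′ to 3′. Capitals mark GGGCGG on either strand (a GC box) and CCGGAAG on either strand (an ETS core).
Arpc1a, chr5:145083619-145083868: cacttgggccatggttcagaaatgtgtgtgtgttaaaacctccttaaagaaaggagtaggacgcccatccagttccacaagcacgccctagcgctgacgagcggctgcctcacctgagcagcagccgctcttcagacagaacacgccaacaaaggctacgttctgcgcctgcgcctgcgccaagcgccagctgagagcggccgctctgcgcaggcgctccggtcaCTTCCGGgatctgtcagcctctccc
Arpc1b, chr5:145114006-145114255: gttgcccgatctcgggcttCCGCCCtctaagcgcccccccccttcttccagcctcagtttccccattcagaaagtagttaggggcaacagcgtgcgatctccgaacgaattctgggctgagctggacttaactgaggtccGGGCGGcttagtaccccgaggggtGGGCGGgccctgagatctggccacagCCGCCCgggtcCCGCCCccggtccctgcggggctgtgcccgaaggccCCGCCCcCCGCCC
Arpc2, chr1:74236267-74236516: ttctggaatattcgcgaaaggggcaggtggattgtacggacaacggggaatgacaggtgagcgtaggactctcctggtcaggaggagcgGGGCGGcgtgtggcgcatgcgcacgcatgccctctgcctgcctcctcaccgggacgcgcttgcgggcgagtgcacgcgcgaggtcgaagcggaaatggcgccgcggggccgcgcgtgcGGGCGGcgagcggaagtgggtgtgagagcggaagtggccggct
The window of Arpc1b held 7 GC boxes, that of Arpc2 held 2, and that of Arpc1a held none but had an ETS core. Promoters of 8 of the 9 genes matched by symbol, and Cttn was not among them. GGGCGG was found in 5 of the 8 and in 32.7% of all 32851 windows of this length, and CCGGAAG in 5 of the 8 and in 6.91% of all windows. The CArG box was found in Arpc4 (1.47% of all windows), CCAAT in Arpc5 and Actr2 (33.8%) and CACGTG in Arpc5 (6.02%). TATAAA (12.4%), CATGTG (12.3%) and TGACGTCA (1.55%) were not found in the windows of these genes. Both strands were searched, no match of 1 motif overlapped that of another in the windows of these genes, and a match is a description of letters, not of a bound site.

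Of the genes for the actin-related proteins, Actr3 (ENSMUSG00000026341) was counted at 528.9, 495.2, 621.4 and 543.5 CPM in the CONTROL_IT tumors 9 to 12. It lay between 596.4 and 811.1 CPM in PTX_IT, 630.0 and 785.4 CPM in NCTD_IT, and 608.9 and 734.7 CPM in MIX_IT. The NCTD_IT tumors did not overlap the control range, whereas PTX_IT and MIX_IT did. Its log2 fold change was 0.37 ± 0.15 (SE), 0.38 ± 0.14 and 0.31 ± 0.14 in the 3 groups, with edgeR adjusted p of 0.785, 0.144 and 0.363. The last 500 bases of Actr3 have a copy of 99.2% identity in the pseudogene Actr3-ps, which held 1745 counts against 63800 for Actr3, and how reads with several alignments were counted is not stated. Actr2 (ENSMUSG00000020152) lay between 155.5 and 242.5 CPM in CONTROL_IT and between 128.4 and 237.7 CPM in the treated IT tumors, with log2 fold changes of -0.14 ± 0.21, 0.01 ± 0.20 and -0.24 ± 0.20.

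The remaining subunit genes Arpc3, Arpc4 and Arpc5 had overlapping ranges in all IT groups. Arpc5 (ENSMUSG00000008475) was even among the CONTROL_IT tumors, at 492.4 to 512.9 CPM, and lay between 415.3 and 730.5 CPM in the treated tumors, with log2 fold changes of 0.05 to 0.14. Arpc3 and Arpc4 were counted 2370 and 3442 times in all tumors together, so their precision is lower. Arpc3 (ENSMUSG00000029465) lay between 17.6 and 31.1 CPM in CONTROL_IT and between 14.2 and 39.6 CPM in the treated IT tumors. Arpc4 (ENSMUSG00000079426), the subunit that pairs with the Arpc2 product in the core, lay between 26 and 45.8 CPM in CONTROL_IT and between 18.4 and 46.7 CPM in the treated IT tumors. On GRCm39 these genes lie at chr1:152642293-152651348 (Arpc5), chr5:122529941-122552247 (Arpc3) and chr6:113355076-113367409 (Arpc4), all on the plus strand, and the minus strand holds Actr2 at chr11:20012304-20062913 and Actr3 at chr1:125320642-125363464. No edgeR adjusted p of these 3 genes was below 0.699 by this route.

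**Figure D3:**
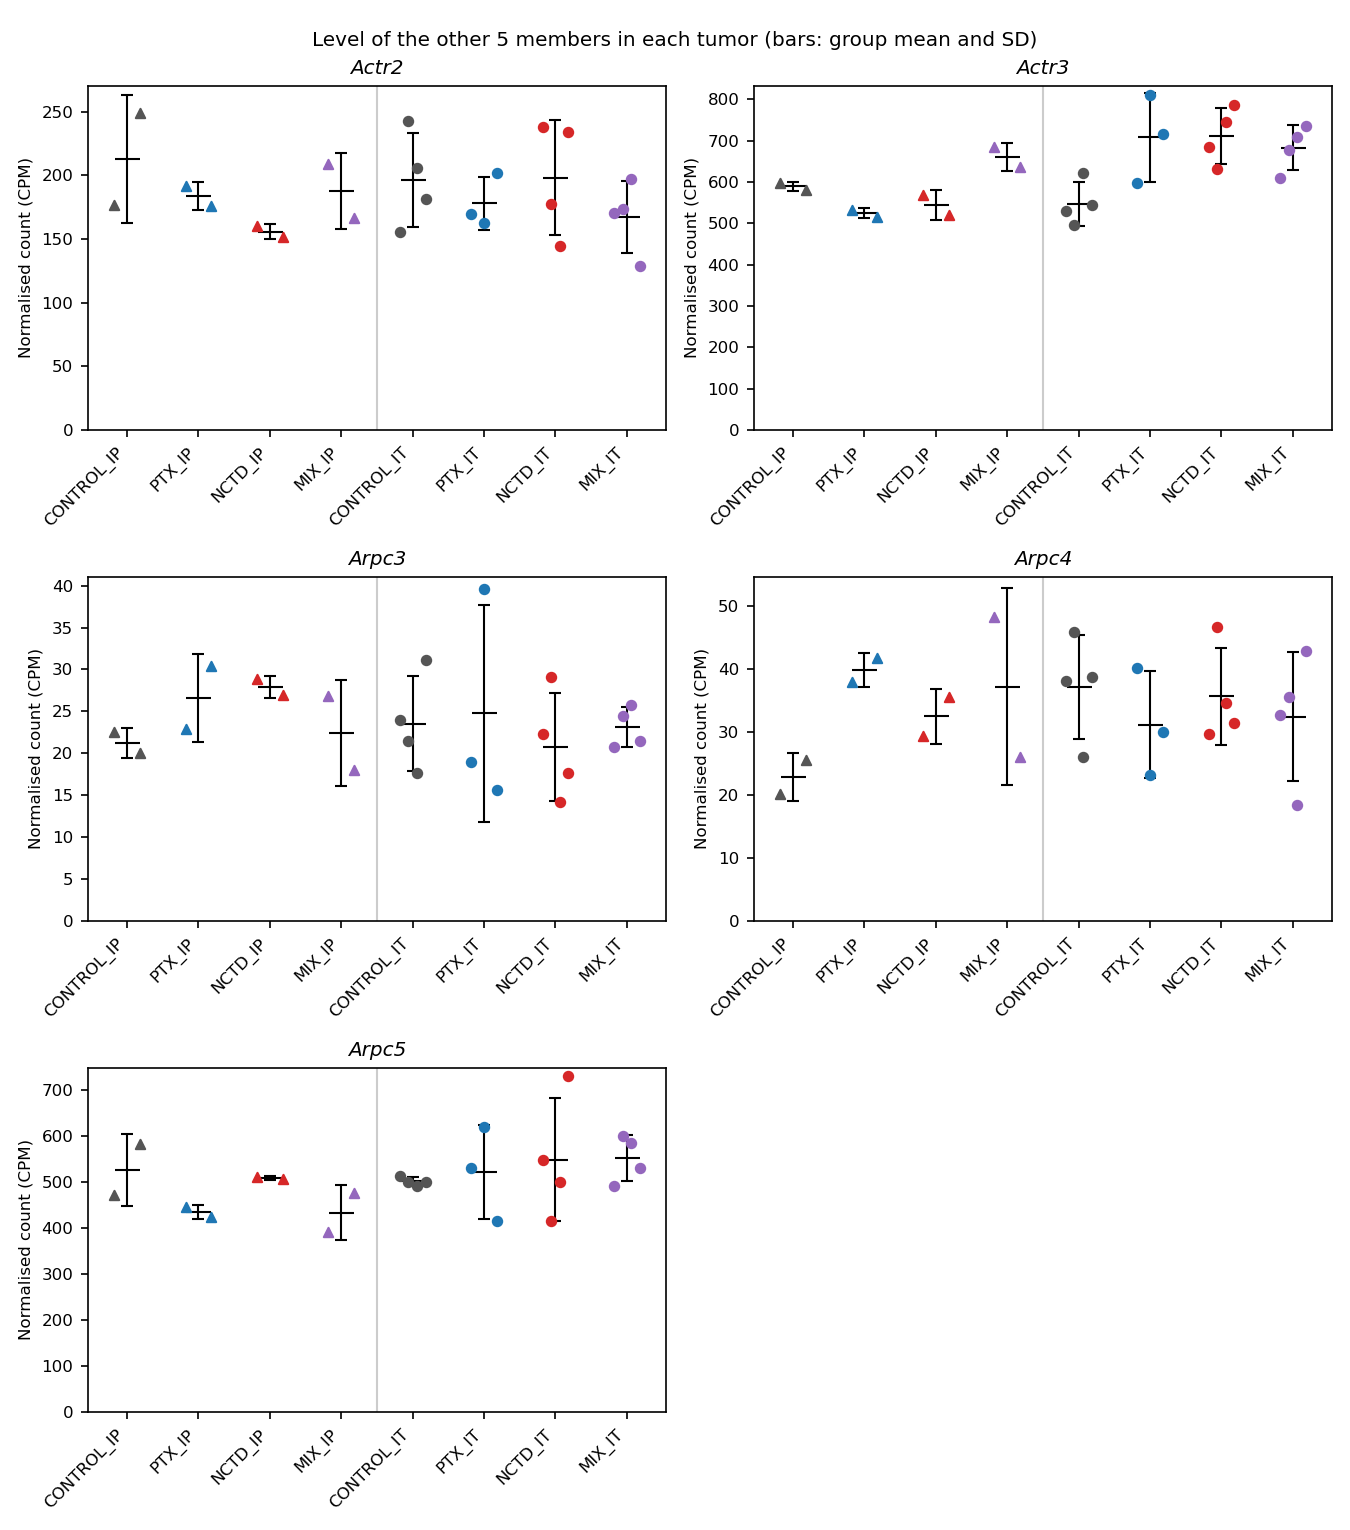
Normalised count in CPM (vertical axes, from 0) of Actr2, Actr3, Arpc3, Arpc4 and Arpc5 in each tumor by group, with triangles for IP tumors, circles for IT tumors and black bars for the group mean and SD. Actr3 of the NCTD_IT tumors (630.0 to 785.4 CPM) lies above the CONTROL_IT tumors, and the other 4 genes overlap between the IT groups.

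The summed level of the 8 Arp2/3 genes was 2715 ± 121 CPM (SD, n = 4) in CONTROL_IT, 2964 ± 184 (n = 3) in PTX_IT, 2808 ± 410 (n = 4) in NCTD_IT and 2804 ± 291 (n = 4) in MIX_IT. In the IP groups it lay between 2693 and 2887 CPM on average. The sums of all treated IT groups overlapped those of CONTROL_IT (2640 to 2895 CPM), and NCTD_IT and MIX_IT differed from it by less than their own SD, while PTX_IT lay above it by more than the SD of either group. The sum was not tested.

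Read against all genes, the count of members called was 2 of 9 in NCTD_IT vs CONTROL_IT, where 171 of 12480 genes (1.37%) were called. At an unadjusted p below 0.05 it was 4 of 9 (Cttn, Arpc1a, Arpc2 and Actr3), against 21.6% of all genes. In MIX_IT vs CONTROL_IT no member and 0% of genes were called, and the same 4 members had an unadjusted p below 0.05, against 13% of all genes. In PTX_IT vs CONTROL_IT no member and 0% of genes were called, and 3 members (Cttn, Arpc1a and Actr3) had an unadjusted p below 0.05, against 6.35%. The median log2 fold change of the 9 members was 0.05, 0.01 and -0.03 in PTX_IT, NCTD_IT and MIX_IT, beside 0.02, 0.03 and 0.01 for all genes tested. The set as a whole was thus centred near 0, with a few members away from it. DESeq2 on the 2 groups compared called 3 members in NCTD_IT (Cttn, Arpc1a and Arpc2, against 10.6% of genes), 2 in MIX_IT (Cttn and Arpc1a, with adjusted p of 0.000831 and 0.0028, against 1.92%) and none in PTX_IT (0.0969%).

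The 2 calls of NCTD_IT stood close to the threshold. Leaving out 1 of the 8 tumors gave log2 fold changes of 0.63 to 0.72 for Cttn and 0.89 to 1.05 for Arpc1a, and edgeR adjusted p of 0.0508 to 0.145 and 0.0485 to 0.145. Arpc1a remained called without CONTROL_IT tumor 10, and every other left-out tumor ended both calls. Over all genes these fits called 0 to 191 genes in place of 171. In MIX_IT, leaving out a tumor gave 0.72 to 0.91 for Cttn, 0.85 to 1.16 for Arpc1a and -1.03 to -0.62 for Arpc2, with the values nearest 0 without tumor 23.

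**Figure D4:**
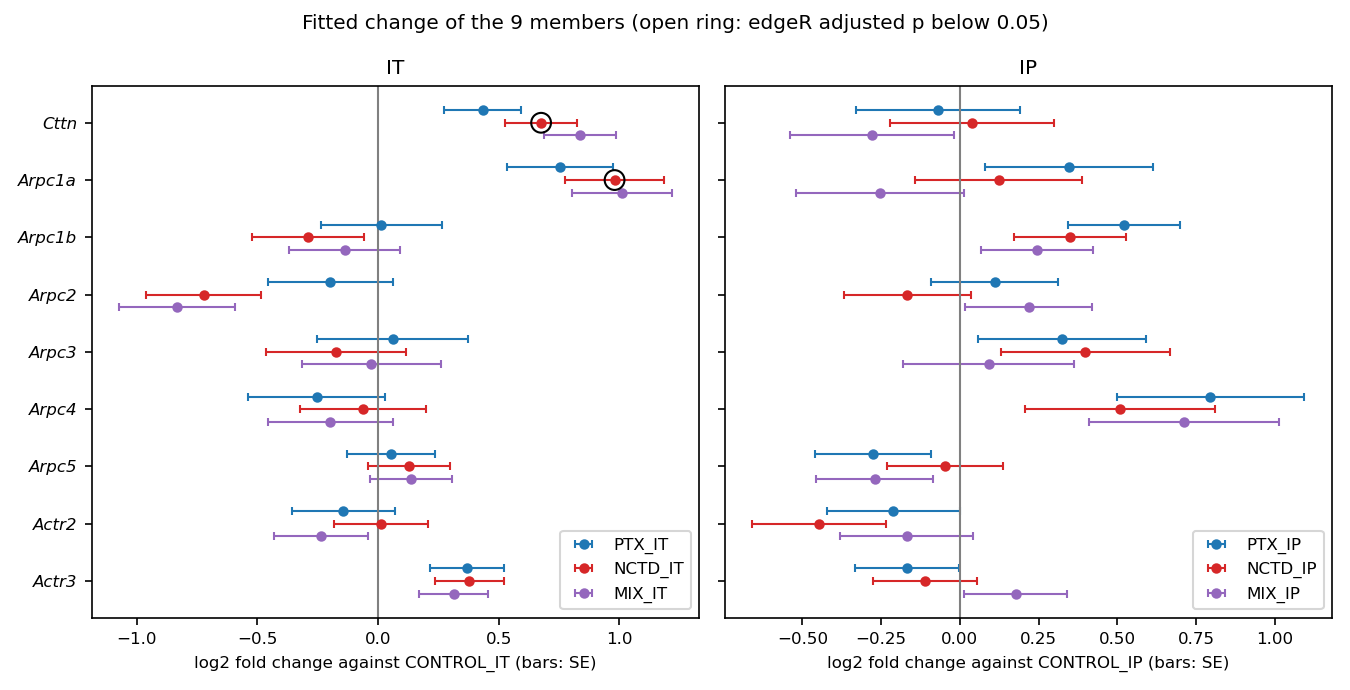
Fitted log2 fold change (horizontal axes, bars are SE) of the 9 members against the control of their route in the IT tumors (left) and IP tumors (right), for PTX, NCTD and MIX. An open ring marks an edgeR adjusted p below 0.05, which Cttn (0.68) and Arpc1a (0.98) in NCTD_IT have and no other value has.

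Between the drug groups of the intratumoral route no member was called. NCTD_IT vs PTX_IT gave no member at an unadjusted p below 0.05 (3.87% of genes, with 0% called). MIX_IT vs NCTD_IT also gave none (6.02% of genes, with 0.00801% called), and the difference of Cttn was 0.16 ± 0.15 (SE) on the log2 scale. MIX_IT vs PTX_IT gave 2 members at an unadjusted p below 0.05 (3.75% of genes, with 0% called), with Cttn at 0.40 ± 0.16 and Arpc2 at -0.63 ± 0.26 and an edgeR adjusted p of 0.982 for both. The departure of MIX_IT from the sum of PTX_IT and NCTD_IT was negative for Arpc1a, at -0.72 ± 0.30, with an unadjusted p below 0.05 (11.3% of genes, with 0.0401% called) and an edgeR adjusted p of 0.42. For Cttn it was -0.27 ± 0.22. These comparisons share tumors with those against CONTROL_IT and add no separate evidence.

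By the intraperitoneal route, Cttn lay at 375.7 and 266.2 CPM in CONTROL_IP, 380.0 and 231.3 CPM in PTX_IP, 324.3 and 332.8 CPM in NCTD_IP, and 237.7 and 287.3 CPM in MIX_IP. Arpc1a lay at 228.9 and 191.7 CPM in CONTROL_IP, 344.6 and 190.2 CPM in PTX_IP, 205.8 and 250.9 CPM in NCTD_IP, and 169.1 and 180.7 CPM in MIX_IP. The ranges of every treated IP group overlapped CONTROL_IP for both genes, except that Arpc1a of both MIX_IP tumors lay below the control tumors. Arpc2 lay at 536.4 and 481.2 CPM in CONTROL_IP and between 405.9 and 659.3 CPM in the treated IP tumors. The log2 fold changes of Cttn were -0.07 ± 0.26 (SE) in PTX_IP, 0.04 ± 0.26 in NCTD_IP and -0.28 ± 0.26 in MIX_IP.

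No member was called by this route with edgeR or DESeq2 on the 2 groups. In PTX_IP vs CONTROL_IP, 2 members had an unadjusted p below 0.05 against 5.3% of genes (0% called, DESeq2 0.0186%). These were Arpc1b, with 910.7 and 812.2 CPM against 662.0 and 539.0 CPM in the control (log2 fold change 0.52 ± 0.18), and Arpc4, with 37.9 and 41.7 CPM against 20.2 and 25.5 CPM (0.80 ± 0.30). Their edgeR adjusted p was 0.906. In MIX_IP vs CONTROL_IP it was Arpc4 alone, at 48.3 and 26.1 CPM (0.71 ± 0.30), against 2.94% of genes (0% called, DESeq2 0.138%), and in NCTD_IP vs CONTROL_IP none, against 3.59% (0% called, DESeq2 0.0787%). In the model of the 8 IP tumors with an effect for each drug, Arpc4 had a PTX effect of 0.50 ± 0.22 (2.96% of genes at an unadjusted p below 0.05, with 0% called), and no member had an NCTD effect below that threshold (2.56%, with 0% called). Arpc4 shares 1189 bases with Ttll3 on the same strand, which held 202 counts in all tumors.

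The difference of a drug effect between the routes was tested in a model of all 23 tumors, and no member was called. For MIX it was 1.13 ± 0.29 (SE) for Cttn, 1.28 ± 0.36 for Arpc1a and -1.03 ± 0.38 for Arpc2 on the log2 scale, which were the 3 members with an unadjusted p below 0.05 (7.44% of genes, with 0% called), and the edgeR adjusted p was 0.584, 0.584 and 0.616. For NCTD there were 3 such members against 10.8% of genes (0% called), Cttn at 0.64 ± 0.28, Arpc1a at 0.86 ± 0.36 and Actr3 at 0.49 ± 0.22. For PTX there were 2 against 5.23% (0% called), Actr3 at 0.54 ± 0.22 and Arpc4 at -1.05 ± 0.45. A response particular to the intratumoral route is therefore not shown for any member.

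Across the 8 groups the mean level of Cttn followed the order MIX_IP, CONTROL_IT, PTX_IP, CONTROL_IP, NCTD_IP, PTX_IT, NCTD_IT and MIX_IT, from 262 to 507 CPM. The ranges of every pair of neighbours in this order overlapped. For Arpc1a the order ran from MIX_IP at 175 CPM to MIX_IT at 432 CPM, and MIX_IP and CONTROL_IP were the only neighbours whose ranges did not overlap. For Arpc2 it ran from MIX_IT at 284 CPM to MIX_IP at 587 CPM, with every pair of neighbours overlapping.

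Over the 23 tumors, Pearson's r of log2 CPM with Cttn was highest for Glud1 (0.943), Arpc1a (0.940), Gmcl1 (0.927), Ddx6 (0.914) and Smim30 (0.910). Arpc1a was thus the 2nd of all genes that passed the filter and the only member near the top. Arpc5 (0.535) and Actr3 (0.598) were next among the members, and Arpc2 was near the other end (r = -0.805). With each group centred on its mean, r with Cttn was 0.879 for Arpc1a and -0.367 for Arpc2. Arpc1b and Arpc2 had r = 0.688 over all tumors and 0.736 within groups. The genes most like the mean of the 8 Arp2/3 members over the 23 tumors were Blvrb (0.783), Pilra (0.773), Myl6 (0.768), Csrp1 (0.768) and Fcgr1 (0.765). This order was not stable, since over the 15 IT tumors they ranked 35, 85, 34, 112 and 29. These values describe the tumors, which share treatments, libraries and scaling, and have no p.

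**Figure D5:**
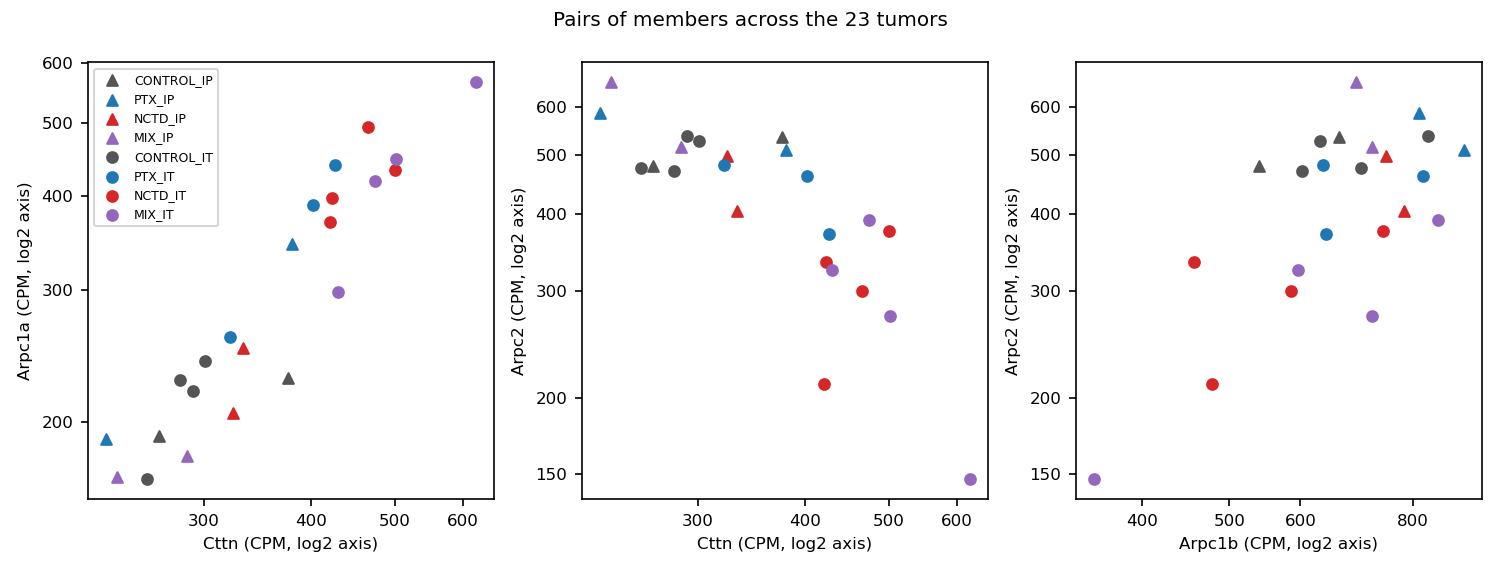
Level of Arpc1a against Cttn, of Arpc2 against Cttn and of Arpc2 against Arpc1b in the 23 tumors (CPM on log2 axes), coloured by treatment, with triangles for IP and circles for IT. Cttn and Arpc1a lie along a rising line (r = 0.940), Cttn and Arpc2 along a falling one (r = -0.805), and MIX_IT tumor 23 is at the end of all 3 panels.

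Other quantities moved with the same groups. Malat1, a nuclear RNA, had 76.3 to 96.5 CPM in CONTROL_IT, 74.2 to 424 CPM in PTX_IT, 279 to 693 CPM in NCTD_IT and 156 to 498 CPM in MIX_IT, and its r over the 15 IT tumors was 0.812 with Cttn, 0.819 with Arpc1a and -0.764 with Arpc2. With each of the 8 groups centred on its mean, r over all 23 tumors was 0.415, 0.498 and -0.657. Mitochondrial transcripts made up 2.56% ± 0.13 of counts in CONTROL_IT, 3.44% ± 0.448 in PTX_IT, 4.73% ± 1.78 in NCTD_IT and 4.58% ± 1.04 in MIX_IT. The 6 fibroblast markers, all counted in each group, summed to 109 to 367 CPM in CONTROL_IT, 257 to 808 CPM in PTX_IT, 390 to 1675 CPM in NCTD_IT and 491 to 8585 CPM in MIX_IT. The 7 melanoma cell markers summed to 26293 to 31953, 24628 to 30986, 19269 to 27151 and 15319 to 28969 CPM in these groups. MIX_IT tumor 23 had the highest fibroblast sum and the lowest melanoma cell sum of the IT tumors, together with the highest Cttn and Arpc1a and the lowest Arpc1b and Arpc2. Over the 15 IT tumors r was 0.881 between Arpc2 and the melanoma cell sum and -0.906 between Arpc2 and the fibroblast sum. Within the 8 groups of all 23 tumors these were 0.749 and -0.775. For Cttn they were -0.576 and 0.756 over the IT tumors and 0.08 and 0.38 within groups. For Arpc1a they were -0.544 and 0.668 over the IT tumors and -0.02 and 0.34 within groups. In bulk tumors, fewer cells of a type and less RNA per cell cannot be told apart, and the part of these quantities in the results was not tested.

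Xist, which is transcribed in female cells, was counted at 5.19 to 13.6 CPM in NCTD_IT and 1.28 to 11.6 CPM in PTX_IT, at 0 to 0.566 CPM in CONTROL_IT and at 0 in all 4 MIX_IT tumors, where a count of 0 allows up to 0.449 to 1.04 CPM over the tumors of the series. Ddx3y, a gene of the Y chromosome, had 0 or 1 counts in all 7 PTX_IT and NCTD_IT tumors, 1.03 to 8.98 CPM in CONTROL_IT and 6.83 to 15.5 CPM in MIX_IT. The study describes its groups as matched for sex, but both genes separated PTX_IT and NCTD_IT from their control, and in these groups that difference and the drug cannot be told apart. Among the IP tumors, Xist was at 8.26 CPM in CONTROL_IP tumor 2 and at 0 in tumor 1 and every treated tumor. Ddx3y was at 0.451 CPM in CONTROL_IP tumor 2, 5.63 CPM in tumor 1 and 3.28 to 14.1 CPM in the treated IP tumors. No fit of the IP tumors used Xist as a covariate. With the log2 level of Xist as a covariate, the log2 fold change in NCTD_IT was 0.38 ± 0.33 (SE) for Cttn and 0.65 ± 0.48 for Arpc1a, and neither was called, nor was any other gene by edgeR (0% of 12480, with 701 at an unadjusted p below 0.05). In MIX_IT, where Xist was at 0 as in 2 of the control tumors, the same fit gave 0.87 ± 0.15 for Cttn (adjusted p = 0.0413) and 1.04 ± 0.21 for Arpc1a (adjusted p = 0.0499), and both were called, with 57 genes higher and 19 lower in all (0.609%). The summed levels of the other marker lists are given by their ranges in CONTROL_IT, PTX_IT, NCTD_IT and MIX_IT in this order. Macrophage markers had 178 to 798, 138 to 957, 399 to 1002 and 240.2 to 552 CPM, and pan-leukocyte markers had 34.5 to 366, 59.8 to 548, 168 to 617 and 76.9 to 322 CPM. T and NK cell markers had 1.54 to 134, 6.16 to 125, 22.5 to 283 and 2.43 to 114 CPM. Neutrophil markers had 2.26 to 8.76, 7.19 to 17.7, 17.9 to 1093 and 14 to 22.6 CPM, where the median of NCTD_IT was 36.6 CPM and its upper end was 1 tumor. These lists overlapped between CONTROL_IT and the treated groups, apart from the neutrophil markers of NCTD_IT and MIX_IT. Endothelium had 32.7 to 57.4, 51.9 to 76.4, 71.9 to 137 and 59.3 to 213 CPM, and erythroid markers had 1238 to 6944, 302 to 2422, 258 to 1359.8 and 809.7 to 5149 CPM. Skeletal muscle had 5.41 to 42.5, 8.99 to 141, 6.95 to 242 and 6.07 to 88.4 CPM, and adipocyte markers had 67.9 to 85.2, 85.5 to 169.8, 135 to 292 and 76.1 to 520.2 CPM. Keratinocyte markers had 0 to 0.876, 0.771 to 7.41, 0 to 7.64 and 0 to 10.7 CPM, with 2 of the 4 at 0 in CONTROL_IT.

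Of 91 listed genes of the pathway around the complex, 85 were tested in the IT tumors and 84 in the IP tumors. In NCTD_IT vs CONTROL_IT, 1 was higher and 3 were lower past the adjusted threshold, and 13 were higher and 15 lower at an unadjusted p below 0.05, with a median log2 fold change of 0.08 beside 0.03 for all genes. Over all genes the shares at these thresholds were 1.37% and 21.6%. In PTX_IT (7 higher and 1 lower unadjusted, against 6.35% of all genes) and MIX_IT (8 higher and 6 lower, against 13%), and in all IP comparisons, no listed gene was called. Values of the 3 lower genes follow, and the 1 that was higher is not reported here. Wipf3, of the WIP family that binds N-WASP, fell, with 22.1 to 30.4 CPM in CONTROL_IT and 3.23 to 7.95 CPM in NCTD_IT (log2 fold change -2.37 ± 0.44, edgeR adjusted p = 0.028). Actn4, the crosslinker alpha-actinin 4, fell, with 72.1 to 106 CPM in CONTROL_IT and 29.0 to 35.8 CPM in NCTD_IT (-1.45 ± 0.30, adjusted p = 0.0363). Mmp14, the membrane protease of invadopodia, fell, with 267 to 385 CPM in CONTROL_IT and 123 to 210.4 CPM in NCTD_IT (-0.92 ± 0.21, adjusted p = 0.0482). None of these calls held with Xist as a covariate, where edgeR called no gene in this comparison. Because Xist separated NCTD_IT from CONTROL_IT, that fit cannot tell the Xist difference from the drug. Leaving out tumor 11, 12 or 18 also left no gene called.

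By role, in counts to be read against the same 1.37% and 21.6%, the nucleation-promoting factors had 7 of 8 genes tested and none called in NCTD_IT, and Hcls1, the blood cell relative of cortactin, had 1.57 ± 0.57 (edgeR adjusted p = 0.13). The WAVE complex, which activates Arp2/3 below Rac, had 7 of 8 tested and none called (median log2 fold change -0.32), with 1 higher and 3 lower at an unadjusted p below 0.05. The WASH complex (5 of 5 tested) had none at that threshold. Inhibitors and debranching factors (8 of 9) had 1, higher, and the list of actin, profilin, cofilin and capping genes (15 of 16) had 3 higher and 5 lower, none of them called. The kinases and partners of cortactin (15 of 16) had 4 higher and 2 lower, with Mmp14 called, the adaptors (5 of 5) had Wipf3 alone, and the other nucleators and crosslinkers (16 of 17) had 3 higher and 2 lower, with Actn4 among those called.

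The paralogues of the complex outside the set are listed separately. Arpc5l lay between 112 and 148 CPM in CONTROL_IT and between 101 and 154 CPM in the treated IT tumors, with a log2 fold change of -0.19 ± 0.14 in NCTD_IT (edgeR adjusted p = 0.462). Actr3b, the relative of Actr3, had 0.47 ± 0.29 (adjusted p = 0.367). Both ranges overlapped the control, and neither gene was called in any comparison.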

How the data were processed

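RNA of 23 tumors was measured in 8 groups, which were taken from the labels. Per the methods of the study, the authors used a 3′ messenger RNA library kit, trimmed with Trimmomatic, aligned to GRCm39 with STAR 2.7.11b, and deposited counts of reads per gene without normalization. The strand setting, the handling of reads with several alignments and the use of molecular identifiers are not given in the sources used here.

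edgeR 4.0.16 gave the main tests and DESeq2 1.42.0 the alternative ones, run in R 4.3.3 with limma 3.58.1 loaded. Low genes were removed by filterByExpr (minimum count 10, minimum total 15), libraries were scaled by TMM, and the 4 groups of a route entered the same quasi-likelihood model. All tests were two-sided, with p-values adjusted over all genes tested (12480 for IT, 12424 for IP and 13395 for all tumors). Standard errors were derived from the F statistic. Correlations used log2 CPM with a prior count of 2. DESeq2's adjusted p values that were not given stayed out of its counts. The models were also run on simulated data in which 200 genes were changed by 2 on the log2 scale, up or down. That is larger than any fitted change of a member, so recovery of changes of their size was not tested.

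The members, the gene lists, the markers and the rule for naming genes were chosen with earlier results of these data known. By that rule the text names all members and the listed genes called against a control, except the 1 called higher in NCTD_IT. It also names Arpc5l, Actr3b, Hcls1 and Wipf3, the 5 genes most like Cttn or the mean of the others, and Xist and Malat1. The ratios and Ddx3y were chosen after their values were seen. Some listed genes are not reported here. Copies were sought by aligning the last 500 bases of each member's coding transcripts to the GENCODE transcripts, and promoter sequences are from RefSeq.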

Additional observations from a re-analysis of the deposited data

Results flagged for a closer look

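In 39 sets of 4 tumors, of the levels of the 9 members and of 4 ratios, 1 tumor stood apart from the rest of its group by Dixon's test, about as chance alone flags in 1 of 20 groups. The ratio of Arpc1a to Arpc1b in MIX_IT tumor 23 was 1.60, whereas the other 3 tumors of its group had 0.489 to 0.622. Its gap to the nearest of them was 0.88 of the range of the group. The cause was not tested, and the marker sums of this tumor are given beside the results.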

How the results depend on the processing

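The number of members called in NCTD_IT vs CONTROL_IT was 2 with DESeq2's size factors, with protein-coding genes alone and with all 23 tumors in the model. It was also 2 with DESeq2 on the same samples and without a filter (Arpc1a and Arpc2 in this case), and 3 in fits of only the 2 groups. Over all genes, 112 were higher and 54 lower of 12480 with DESeq2's size factors, and 102 and 48 of 11121 with protein-coding genes. With all 23 tumors these were 390 and 387 of 13395, and with DESeq2 on the same samples 515 and 398 of 12266. Without a filter they were 769 and 421 of 26878. In the fits of 2 groups they were 524 and 422 of 11263 with edgeR, and 767 and 613 of 13015 with DESeq2. The number of members called was 0 with Xist as a covariate, where 0 genes in all were called in place of 171. With a tumor left out it was 0 to 1, where 0 to 191 genes in all were called. In MIX_IT vs CONTROL_IT the number of members called was 0 in the reported fit, with DESeq2's size factors, with protein-coding genes alone and with a tumor left out. It was also 0 with edgeR on only the 2 groups and with all 23 tumors in the model. It was 3 without a filter, where 259 genes were higher and 105 lower of 26878. With DESeq2 on the same samples it was 3, where 138 genes were higher and 45 lower of 9670. It was 2 with DESeq2 on the 2 groups, where 230 of 11969 genes were called. With Xist as a covariate it was 2, where 76 of 12480 genes were called. In the other 13 comparisons it was 0 in every setting run. The r of Arpc1a with Cttn was 0.940 with a prior count of 0.5 and 0.952 over the 15 IT tumors. No paired analysis was possible because the labels give no number that groups share.

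Of 54 log2 fold changes of members against a control, 20 changed sign in an alternative. In the reported fit these 20 were at most 0.347 in size, and none had an unadjusted p below 0.05. A reversed value could be larger, as for Arpc3 in PTX_IT with Xist as a covariate (edgeR unadjusted p = 0.0388, adjusted p = 0.975). With Xist as a covariate, the values for PTX_IT were -0.32 for Arpc1b, 0.074 for Arpc2, -1.15 for Arpc3, -0.41 for Arpc5 and 0.00052 for Actr2, that of Arpc5 in NCTD_IT was -0.41, and that of Arpc3 in MIX_IT was 0.14. Without a filter, Actr2 in NCTD_IT had -0.0017. With a tumor left out, the PTX_IT values ranged from -0.12 to 0.12 for Arpc1b, -0.44 to 0.30 for Arpc3 and -0.080 to 0.18 for Arpc5. Those of Arpc2 and Actr2 ranged from -0.28 to -0.087 and from -0.25 to -0.022. The NCTD_IT values ranged from -0.37 to 0.0011 for Arpc3, -0.21 to 0.068 for Arpc4, -0.031 to 0.25 for Arpc5 and -0.089 to 0.14 for Actr2. The MIX_IT values ranged from -0.32 to 0.058 for Arpc1b and -0.14 to 0.15 for Arpc3. In PTX_IP they ranged from -0.48 to 0.23 for Cttn, -0.15 to 0.70 for Arpc1a, -0.0044 to 0.20 for Arpc2 and -0.44 to 0.052 for Actr2. In NCTD_IP they ranged from -0.19 to 0.31 for Cttn, -0.012 to 0.26 for Arpc1a and -0.19 to 0.11 for Arpc5, and in MIX_IP from -0.23 to 0.37 for Arpc3 and -0.39 to 0.10 for Actr2. The cause of these changes was not tested. With 2 tumors a group by the intraperitoneal route, and with few counts of Arpc3 and Arpc4, precision was lowest there.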
